A study of Mus musculus with 6 samples.

Results

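The chemokine receptor genes of the mouse, Ccr1, Ccr2, Ccr3, Ccr7, Ccrl2, Cx3cr1 and Cxcr4, were described by the binding sites of 3 transcription factors around them. They were chosen by name, with earlier results of these data known. Every chromatin immunoprecipitation sequencing (ChIP-seq) peak was taken whose nearest transcription start site (TSS) belonged to one of the 7 genes. This gave 212 of the 134964 peaks in the 6 peak lists. Peaks of different lists that shared at least 1 base were merged into a site, which left 79 of 60856 sites near these genes. No site held a peak of any other gene (0 peaks). The nearest start site is a position and not a proof of which gene a site acts on.

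The cells were bone marrow-derived macrophages (BMDMs) of wild-type mice aged 8 to 12 weeks, with a C57BL/6 background according to the methods of the study. Marrow cells were cultured for 6 days with supernatant of L929 cells, a source of macrophage colony-stimulating factor (MCSF), and all samples share this step. Cells of the treated group were then given IL-4 for 1 h, at a dose of 20 ng/ml. Control cells had no IL-4, and the labels of their samples read veh, taken here to mean vehicle. An antibody to JUNB, IRF8 or C/EBPα served to precipitate the chromatin bound by that factor. Each factor and condition had 1 sample, so no difference could be tested and each one describes a pair of samples. How many mice gave a sample, and which of the library kits named in the labels served which sample, were not given in the sources used here.

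Chemokine receptors are G protein-coupled receptors in the cell membrane that steer leukocytes along gradients of small secreted proteins, the chemokines. In the monocyte and macrophage lineage, CCR2 is known for drawing monocytes out of the marrow into tissue, CX3CR1 for patrolling monocytes and many resident macrophages, CCR1 for inflammatory recruitment and CXCR4 for retention in the marrow by CXCL12. CCR3 is best known from eosinophils, CCR7 guides dendritic cells and lymphocytes to lymph nodes, and CCRL2 binds chemerin without the usual signalling. C/EBPα, IRF8 and JUNB are all counted by the study among the lineage-determining transcription factors (LDTFs) of macrophages. IRF8 is a myeloid factor of the interferon regulatory family, and JUNB is a partner in the AP-1 complex.

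Peaks carry a deposited score, which has no stated unit and was read as the −log10 of a q-value or p-value. Such a score rises with the number of reads as well as with enrichment, and the sequencing depth is unknown. Scores of different antibodies were therefore not compared with each other, and a difference in depth between the control and the IL-4 sample of a factor cannot be told apart from an effect of IL-4. In control and after IL-4, the C/EBPα lists held 24486 and 24612 peaks, the IRF8 lists 37525 and 42076, and the JUNB lists 3940 and 2325, so the JUNB list as a whole was shorter after IL-4. Of 6 macrophage marker genes, 5 had peaks (86 in all), and Spi1 had none under that symbol. Of 4 T and B cell marker genes, 3 had peaks (8 in all). Peaks do not measure expression, so these counts do not show which cells were in the culture.

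The sequences under 7 of the sites are given first. Each is read from GRCm38, the assembly that mm10 names, and spans 200 bp around the centre of the highest peak, on the plus strand, except for the Ccr1 promoter, where the 180 bp upstream of the TSS are given on the minus strand, along which the gene is read. Capitals mark matches on either strand to any of 5 motif cores: AP-1 (TGACTCA or TGAGTCA), C/EBP (TTGCNNAA), an ETS-IRF composite core (GGAANNGAA), an interferon response core (GAAANNGAA) and a STAT6-type site (TTC and GAA with 3 or 4 bases between them). Matches of different motifs may overlap. The first pair carried the highest IRF8 scores of Cx3cr1 (intron 1, chr9:120058734-120058933) and Cxcr4 (intron 1, chr1:128590975-128591174).
Cx3cr1 intron 1: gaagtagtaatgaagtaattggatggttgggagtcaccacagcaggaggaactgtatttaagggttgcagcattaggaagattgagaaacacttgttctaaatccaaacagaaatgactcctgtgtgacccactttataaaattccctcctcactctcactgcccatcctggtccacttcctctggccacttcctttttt
Cxcr4 intron 1: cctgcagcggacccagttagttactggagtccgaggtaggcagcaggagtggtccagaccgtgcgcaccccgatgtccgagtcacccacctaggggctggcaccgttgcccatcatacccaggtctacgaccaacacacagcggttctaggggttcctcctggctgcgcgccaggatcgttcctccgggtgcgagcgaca
Neither window held a match to the 5 cores, and the Cxcr4 window had a GC content of 64.0%. The next pair came from Ccr3, where the downstream site (chr9:124056315-124056514) had the highest C/EBPα score after IL-4 and the intron 1 site (chr9:124023124-124023323) was the only one of the 79 to keep a JUNB peak.
Ccr3 downstream: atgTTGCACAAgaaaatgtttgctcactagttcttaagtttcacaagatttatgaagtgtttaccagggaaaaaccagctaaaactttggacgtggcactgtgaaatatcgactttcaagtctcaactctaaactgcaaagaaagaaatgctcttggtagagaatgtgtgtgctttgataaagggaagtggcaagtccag
Ccr3 intron 1: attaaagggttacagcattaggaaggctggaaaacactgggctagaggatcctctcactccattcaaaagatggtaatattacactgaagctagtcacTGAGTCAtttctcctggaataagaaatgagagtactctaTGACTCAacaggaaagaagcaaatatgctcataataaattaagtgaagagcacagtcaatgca
The downstream window held 1 C/EBP match, at bases 4 to 11 of the window, and the intron window held 2 AP-1 matches, at bases 99 to 105 and 138 to 144. The last group lost a JUNB peak after IL-4, at Ccr1 downstream (chr9:123936751-123936950), Ccr2 upstream (chr9:124071612-124071811) and the Ccr1 promoter (chr9:123968693-123968872).
Ccr1 downstream: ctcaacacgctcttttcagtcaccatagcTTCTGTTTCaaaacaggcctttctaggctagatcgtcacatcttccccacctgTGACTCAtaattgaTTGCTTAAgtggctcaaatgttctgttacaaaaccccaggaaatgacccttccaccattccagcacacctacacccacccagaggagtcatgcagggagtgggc
Ccr2 upstream: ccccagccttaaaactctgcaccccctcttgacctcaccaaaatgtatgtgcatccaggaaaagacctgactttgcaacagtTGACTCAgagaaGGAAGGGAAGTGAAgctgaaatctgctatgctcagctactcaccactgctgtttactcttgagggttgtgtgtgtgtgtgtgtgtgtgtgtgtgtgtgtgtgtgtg
Ccr1 promoter: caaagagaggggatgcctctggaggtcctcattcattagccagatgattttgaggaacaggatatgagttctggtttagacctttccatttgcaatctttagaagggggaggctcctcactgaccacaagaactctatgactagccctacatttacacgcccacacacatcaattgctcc
The Ccr1 downstream window held an AP-1, a C/EBP and an interferon response match. The Ccr2 window held an AP-1 match at bases 83 to 89 and a pair of overlapping ETS-IRF matches that together ran from base 95 to base 108. The Ccr1 promoter stretch held none of the 5 cores, which says only that these letters are not in it.

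All 7 genes had C/EBPα and IRF8 peaks in both conditions, and JUNB was the sparse factor. C/EBPα had 47 peaks at the 7 genes in control and 46 after IL-4, and IRF8 had 53 in each. JUNB had 10 peaks at 6 genes in control and 3 peaks at 3 genes after IL-4. As a share of the list, the 7 genes took 0.192% and 0.187% of the C/EBPα peaks, 0.141% and 0.126% of the IRF8 peaks, and 0.254% and 0.129% of the JUNB peaks. The median score of the C/EBPα peaks at these genes was 10.84 in control and 8.855 after IL-4 (all peaks 11.195 and 11.22). For IRF8 it was 12.83 and 11.85 (all peaks 10.34 and 9.61), and for JUNB 8.625 and 5.89 (all peaks 7.88 and 6.21). IRF8 peaks at these genes thus scored above the median of their list in both conditions.

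**Figure D1:**
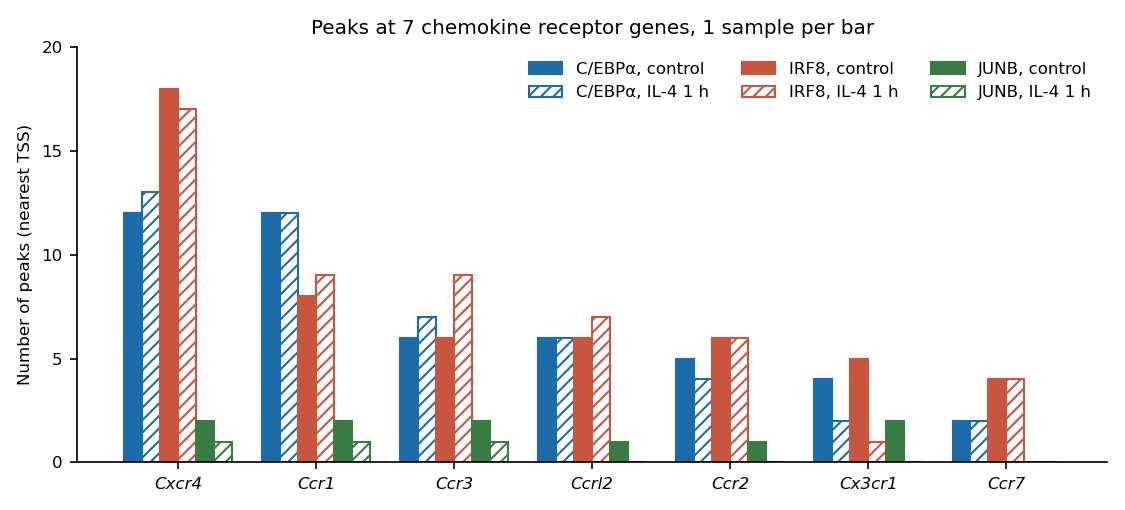
Number of peaks (vertical axis) at each of the 7 genes, with a bar per factor and condition, filled for control and hatched for IL-4 at 1 h, 1 sample per bar. Cxcr4 had the most peaks for IRF8 (18 and 17), Cx3cr1 went from 5 to 1 IRF8 peaks, and Ccr7 had no JUNB bar.

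The genes differed in how many sites surrounded them and where. Cxcr4 had 25 sites (63 peaks), Ccr1 15 (44), Ccr3 11 (31), Ccrl2 10 (26), Ccr2 7 (22), Ccr7 6 (12) and Cx3cr1 5 (14). Sites were mostly distal: 66 of 79 (83.5%) were annotated as intergenic, against 41.4% of all sites, while 7 (8.86%) were intronic, against 45.2%. Gene and intron lengths were not taken into account. Promoter sites numbered 4 (5.06%, all sites 9.01%), 1 each at Ccr1, Ccr3, Ccrl2 and Cx3cr1, and none lay at the promoter of Ccr2, Ccr7 or Cxcr4. The median distance to the TSS was 23044 bp (all sites 19446 bp). Repeats underlay 21 sites (26.6%, all sites 22%), and 10 of these were LTR elements (12.7%, all sites 8.29%).

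Ccr1, Ccr3 and Ccr2 lie close together in a gene cluster on chromosome 9, which the assignment of sites by the nearest TSS divides between genes. Cx3cr1 and Ccrl2 lie elsewhere on chromosome 9, Ccr7 on chromosome 11 and Cxcr4 on chromosome 1. The sites of Cxcr4 reached from 240.3 kb upstream to 85.3 kb downstream of its TSS, and 14 of its 25 sites were within 100 kb.

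**Figure D2:**
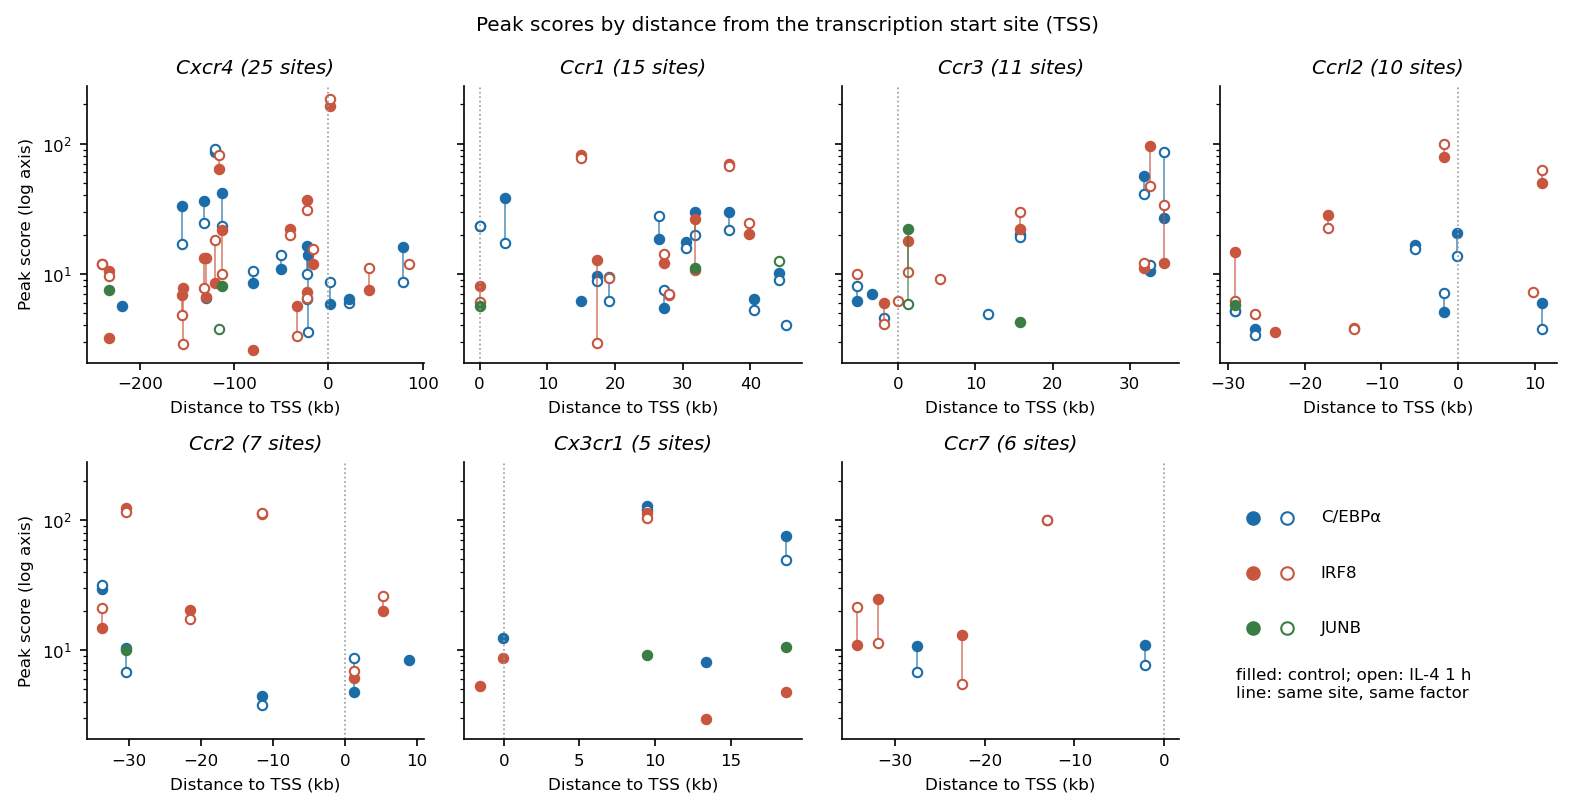
Peak score (log axis) against distance to the TSS in kb for every site of each gene, with filled points for control, open points for IL-4 at 1 h and a line joining the conditions at a site. The highest IRF8 score of each of the 7 genes lay within 32.7 kb of its TSS, while the highest C/EBPα score of Cxcr4 lay 120.7 kb upstream.

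In control, C/EBPα and IRF8 shared sites and JUNB fell on sites that IRF8 also held. Over the whole series, most C/EBPα and JUNB sites in control had IRF8 too. Of 72 sites with any peak in control, 20 had C/EBPα and IRF8, 19 C/EBPα alone, 23 IRF8 alone, 2 IRF8 and JUNB, and 8 all 3 factors. The share with all 3 factors was 11.1% (exact Clopper-Pearson 95% interval 4.92 to 20.7%, for counting error only), against a background of 5.38% of all sites. Sites near a gene are not independent, which this interval and those below leave out, so none of them serves as a test. All 10 JUNB sites in control also had IRF8 (all sites 81.6%) and 8 of 10 had C/EBPα (80%, all sites 73%). IRF8 sites had C/EBPα in 28 of 53 cases (52.8%, all sites 38.3%), and C/EBPα sites had IRF8 in 28 of 47 (59.6%, all sites 58.7%). After IL-4, 0 of 70 sites had all 3 factors, with an upper limit of 5.13%, and the background was 3.08%.

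JUNB peaks at these genes were largely seen in control alone. Of 12 sites with a JUNB peak in either condition, 9 had it only in control (75%, exact 95% interval 42.8 to 94.5%), against 51.9% of all JUNB sites. Only 2 had it only after IL-4 (16.7%), against 18.6%. The single site with both fell by more than 1.5 times, where 47.8% of all shared JUNB sites did, and 0 of 1 rose, where 9.44% did. The background was itself high, 12 sites are few, and the interval takes them as independent. The control-only sites scored between 4.26 and 11 for JUNB, with a median of 8.09.

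At the 9 sites without a JUNB peak after IL-4, the other factors were compared as well. IRF8 had a lower score or no peak at 8 of the 9 (88.9%, background 51.3% of all sites that lost JUNB and had IRF8), and C/EBPα at 6 of 8 (75%, background 55.9%). The exceptions were the Ccr3 site 15.8 kb downstream, where IRF8 went from 21.99 to 29.79, the Ccr1 promoter, where C/EBPα was 23.42 and 23.43, and the Ccrl2 site 29.1 kb upstream, where C/EBPα was 5.16 and 5.19. The last pairs differed by very little. Some falls that were counted were small too. IRF8 went from 122.87 to 116.02 at Ccr2, 114.22 to 104.43 at Cx3cr1 and 10.44 to 9.6 at Cxcr4. C/EBPα went from 128.7 to 119.0 at Cx3cr1 and 20.14 to 19.29 at Ccr3. Other falls were larger, such as IRF8 from 26.09 to 10.74 at Ccr1. Both counts thus rest in part on small differences. With the control list shortened by score to the length of the IL-4 list, 6 JUNB sites were control-only instead of 9. The part of sequencing depth in these counts was not tested.

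C/EBPα kept most of its sites at the 7 genes, with lower scores on balance after IL-4. Of 53 sites, 40 had a peak in both conditions, 7 only in control (13.2%, exact 95% interval 5.48 to 25.3%, background 17.4%) and 6 only after IL-4 (11.3%, 4.27 to 23%, background 17.9%). At the 40 shared sites the score was at least 1.5 times lower after IL-4 in 12 (30%, 16.6 to 46.5%, background 17.8%) and at least 1.5 times higher in 2 (5%, 0.611 to 16.9%, background 17.7%). The median log2 ratio of IL-4 to control scores was −0.16, with 14 sites higher and 26 lower, against a median of −0.0038 over all 19055 shared sites. Of the 12 lower sites, 5 belonged to Cxcr4 and 3 to Ccr1, and the 2 higher ones to Ccr3 and Ccr2. The intervals take neighbouring sites of a gene as independent and are not a test against the background.

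IRF8 kept its sites to a like degree, and a smaller share of sites was new after IL-4 than over the whole list. Of 60 sites, 46 had a peak in both conditions, 7 only in control (11.7%, exact 95% interval 4.82 to 22.6%, background 15.9%) and 7 only after IL-4 (11.7%, 4.82 to 22.6%, background 25.5%). Of the 46 shared sites, 11 were at least 1.5 times lower (23.9%, 12.6 to 38.8%, background 17.4%) and 4 at least 1.5 times higher (8.7%, 2.42 to 20.8%, background 23.5%). The median log2 ratio was −0.06 (20 higher, 26 lower) against 0.08 over all 29087 shared sites. The sign of the member median turned with other score settings: it was 0.023 with a score of at least 10 required and 0.045 with scores divided by the list median. The higher sites were 2 of Cxcr4, 1 of Ccr3 and 1 of Ccr7. As for C/EBPα, the intervals take sites as independent and are not a test.

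**Figure D3:**
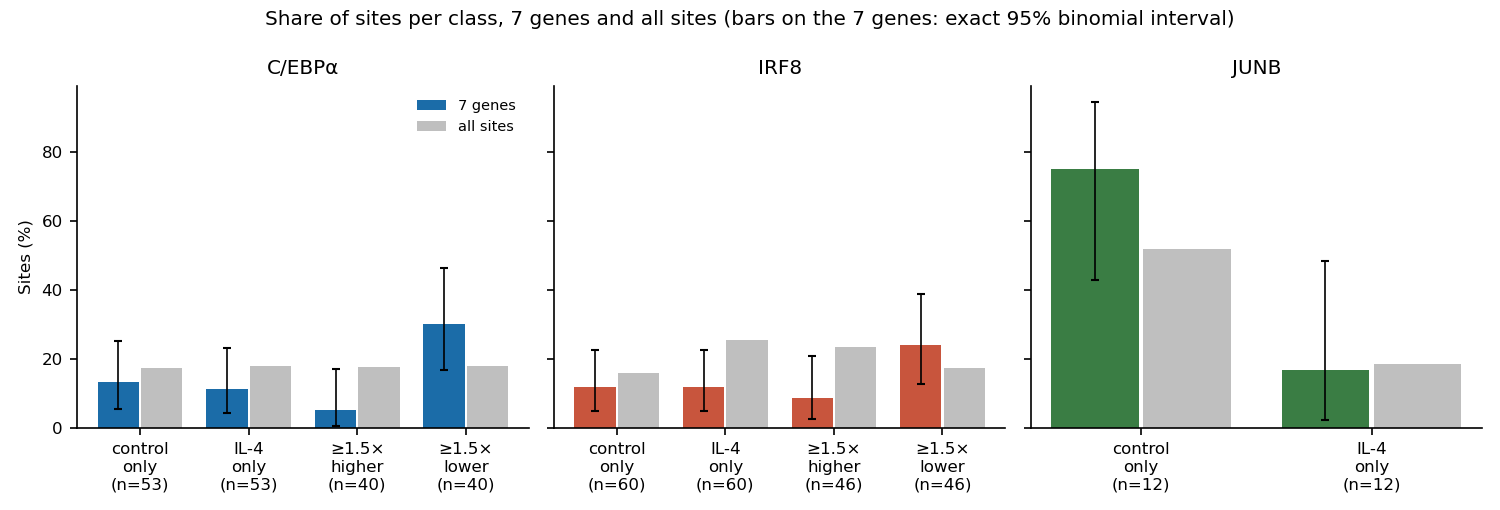
Percent of sites per factor with a peak only in control, only after IL-4, or with a score at least 1.5 times higher or lower after IL-4 at shared sites, for the 7 genes (coloured, with exact 95% binomial intervals) and all sites (grey). The intervals take sites as independent, which sites near a gene are not, and do not serve as a test. Score classes of JUNB are left out because 1 site was shared; the JUNB control-only bar stands at 75% against 51.9%, and C/EBPα 1.5 times lower at 30% against 17.8%.

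Peaks seen in 1 condition were mostly weak ones, near these genes as elsewhere. Of the C/EBPα control peaks, 6 of 19 sites with a score under 10 had no IL-4 peak (31.6%, all sites 42.4%) but 1 of 28 with a higher score (3.57%, all sites 3.77%). For IRF8 the figures were 7 of 19 (36.8%, all sites 40.4%) and 0 of 34 (all sites 3.49%). For JUNB, 3 of 4 control sites with a score of 10 or more were without an IL-4 peak (75%, all sites 40.3%). The share was thus higher than for the other factors over the whole JUNB list too, and 4 sites are few. A score of 10 need not mean the same for each antibody.

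**Figure D4:**
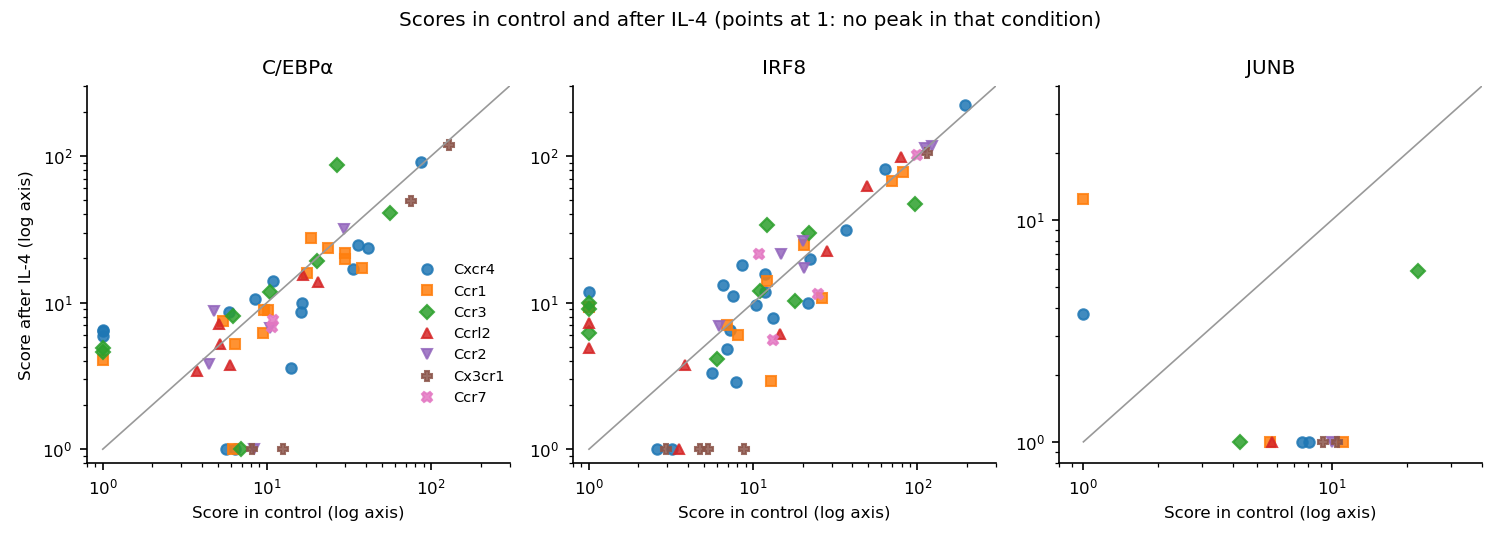
Score in control (horizontal) against score after IL-4 (vertical), both on log axes, for each factor, with a symbol per gene and points placed at 1 where a condition had no peak. C/EBPα and IRF8 points mostly lay near the diagonal above a score of 10, 1 Ccr3 site stood well above it for C/EBPα (26.84 and 86.08), and 9 JUNB points lay on the floor.

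Cx3cr1 encodes the receptor for fractalkine, a chemokine that is anchored in the membrane of other cells. Its 5 sites carried 11 peaks in control and 3 after IL-4. The intron 1 site (chr9:120058549-120059103, 9.5 kb downstream of the TSS) had the highest C/EBPα score among the 7 genes, at 128.7 in control and 119 after IL-4. IRF8 scored 114.22 and 104.43 there, and JUNB 9.16 and then no peak. The strong site thus stayed for C/EBPα and IRF8 and lacked a JUNB peak after IL-4. A site in the last exon, annotated as 3′ UTR (chr9:120049412-120049794), had C/EBPα at 75.48 and 48.94, while IRF8 (4.77) and JUNB (10.49) had peaks in control only.

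The 3 other Cx3cr1 sites had peaks in control alone. The promoter site (chr9:120068170-120068472) scored 12.48 for C/EBPα and 8.74 for IRF8, and it was the highest C/EBPα site among the 7 genes to have no IL-4 peak. The second intronic site scored 8.07 and 2.96, and the site 1.6 kb upstream scored 5.28 for IRF8. Cx3cr1 thereby accounted for 4 of the 7 IRF8 peaks of these genes that were seen only in control. All 4 scored below the IRF8 control median of 10.34. Of 605 genes with exactly 5 IRF8 sites in control, Cx3cr1 included, 9 (1.49%) had no IL-4 peak at 4 or more of them. Both limits are the values of Cx3cr1 itself, so this share is a description and not a test. The genes were not matched for score, and 40.4% of all IRF8 control sites with a score under 10 had no IL-4 peak.

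Ccr2 encodes the receptor for CCL2, and its strongest IRF8 sites had similar scores in both conditions. All 6 IRF8 sites were shared between the conditions, and none of them moved by 1.5 times. The site 30.5 kb upstream (chr9:124071535-124071918) had IRF8 at 122.87 and 116.02, C/EBPα at 10.44 and 6.75, and JUNB at 10.02 in control only. A second strong site, 11.5 kb upstream, had IRF8 at 110.74 and 113.13 with low C/EBPα scores of 4.42 and 3.80. These IRF8 values stayed close to each other while JUNB had no peak after IL-4 at the first site. Nearest to the TSS was an intron 1 site 1.2 kb downstream, with C/EBPα at 4.79 and 8.71 and IRF8 at 6.16 and 6.97. A 3′ UTR site had IRF8 at 20.16 and 26.29. The site 33.8 kb upstream had C/EBPα at 29.28 and 31.58 and IRF8 at 14.84 and 21.28. This was the largest IRF8 change of the gene, 1.434 times higher after IL-4. A C/EBPα peak with a score of 8.36, 8.8 kb downstream, was seen in control only.

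Ccr1 encodes a receptor for CCL3, CCL5 and related inflammatory chemokines, and most of its sites lay downstream of the gene. Its promoter site (chr9:123968541-123968872) had all 3 factors in control: C/EBPα at 23.42 and 23.43, IRF8 at 8.04 and 6.01, and JUNB at 5.60 and then no peak. The second site with all 3, 31.8 kb downstream (chr9:123936628-123936998), was lower or without a peak after IL-4 for each of them. C/EBPα scored 29.79 and 19.84, IRF8 26.09 and 10.74, and JUNB 11 and then no peak. The JUNB value was the highest of a control-only site among the 7 genes. At 44.2 kb downstream, JUNB instead had a peak of 12.42 only after IL-4, where C/EBPα scored 10.08 and 8.88 and IRF8 had no peak.

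The highest IRF8 score of Ccr1 lay 14.9 kb downstream, at 81.33 and 77.28, where C/EBPα had a control peak of 6.22 only. A site 36.8 kb downstream held C/EBPα at 29.96 and 21.70 and IRF8 at 69.95 and 67.70. These strong IRF8 sites moved little between the samples. Larger differences were seen in intron 1, where C/EBPα went from 37.92 to 17.33, 2.19 times lower, and 17.4 kb downstream, where IRF8 went from 12.83 to 2.92, 4.39 times lower. Of all shared IRF8 sites, 0.358% fell by as much. Weak peaks only after IL-4 were C/EBPα 45.3 kb downstream (4.04) and IRF8 19 kb downstream (9.30).

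Ccr3 encodes the eotaxin receptor and had the largest rise in score among the 7 genes. At the site 34.4 kb downstream (chr9:124056144-124056664), C/EBPα scored 26.84 in control and 86.08 after IL-4, 3.21 times higher, and IRF8 12.16 and 33.88, 2.79 times higher. Of all shared sites, 1.81% rose by as much for C/EBPα and 4.29% for IRF8. The neighbouring sites went another way. At 32.7 kb downstream IRF8 went from 96.41 to 47.06 while C/EBPα was 10.43 and 11.72, and at 31.8 kb C/EBPα went from 55.96 to 40.86 while IRF8 was 10.97 and 12.01. The 3 sites thus lay within a few kb and did not share a direction. They lie between Ccr3 and Ccr2, and are nearer to the start of Ccr3.

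The intron 1 site of Ccr3 (chr9:124023067-124023386) had the highest JUNB score of these genes, 22.21 in control, and 5.89 after IL-4, 3.77 times lower. IRF8 went from 17.95 to 10.24 at the same site, and C/EBPα had no peak. Both AP-1 matches printed above lie in this site. The site 15.8 kb downstream had all 3 factors in control, with C/EBPα at 20.14 and 19.29, IRF8 at 21.99 and 29.79, and JUNB at 4.26 only in control. Of the 7 IRF8 peaks that these genes had only after IL-4, Ccr3 had 3. They were 5.3 kb upstream (9.91), at the promoter (6.16) and in intron 1 (9.03). Its control-only C/EBPα peak, 3.5 kb upstream, scored 6.97.

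Ccrl2, whose product presents chemerin to other cells, combined a C/EBPα promoter with strong IRF8 sites outside it. The promoter site (chr9:111057172-111057644) had C/EBPα alone, at 20.49 and 13.76. The site 1.9 kb upstream had IRF8 at 79.04 and 98.45 and C/EBPα at 5.07 and 7.15, and the site 10.9 kb downstream had IRF8 at 49.48 and 62.65. IRF8 was thus higher after IL-4 at both strong sites, by less than 1.5 times. At the site 29.1 kb upstream (chr9:111086210-111086512), IRF8 went from 14.59 to 6.14 and JUNB from 5.73 to no peak. IRF8 peaks only after IL-4 scored 7.26 (9.8 kb downstream) and 4.87 (26.4 kb upstream).

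Cxcr4 encodes the CXCL12 receptor, and its intron 1 site had the highest IRF8 score of the 7 genes in both conditions. At this site (chr1:128590735-128591414), which the authors' annotation places in a CpG island, IRF8 scored 194.42 and 221.73 and C/EBPα 5.86 and 8.57. A second group of strong sites lay far upstream. C/EBPα had 86.75 and 90.57 at 120.7 kb, where IRF8 went from 8.49 to 18.15, and IRF8 had 63.79 and 81.38 at 115.6 kb, where JUNB had a peak of 3.78 only after IL-4. At 113.0 kb (chr1:128705040-128705561) all 3 factors were present in control and lower or without a peak after IL-4. C/EBPα scored 41.49 and 23.40, IRF8 21.53 and 9.96, and JUNB 8.09 and then no peak. Sites a few kb apart therefore moved in different directions here too.

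Elsewhere around Cxcr4, the C/EBPα site 21.7 kb upstream went from 14.04 to 3.56, 3.94 times lower, and 0.278% of all shared C/EBPα sites fell by as much. The C/EBPα site 155.3 kb upstream went from 33.29 to 16.95. IRF8 had a peak of 11.85 only after IL-4 at 85.3 kb downstream, the highest such peak of the 7 genes. JUNB had 7.53 in control only at 232.9 kb upstream, where IRF8 was 10.44 and 9.60. Over its 10 shared C/EBPα sites Cxcr4 had a median log2 ratio of −0.63, against 0.17 over the 5 shared sites of Ccr3. Both rest on few sites of 1 pair of samples.

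Ccr7, which guides migration to lymph nodes, was the least occupied gene by number of peaks. Its 6 sites were all intergenic and upstream, and none held 2 factors or any JUNB peak. IRF8 had 99.67 and 100.74 at 13.0 kb upstream (chr11:99167827-99168385). Further upstream it went from 13.13 to 5.52 at 22.5 kb and from 24.90 to 11.44 at 31.9 kb, but from 10.91 to 21.54 at 34.2 kb. C/EBPα was at 10.95 and 7.65 at 2.1 kb and at 10.70 and 6.82 at 27.5 kb. Each of its 6 sites had its peak in both conditions.

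**Figure D5:**
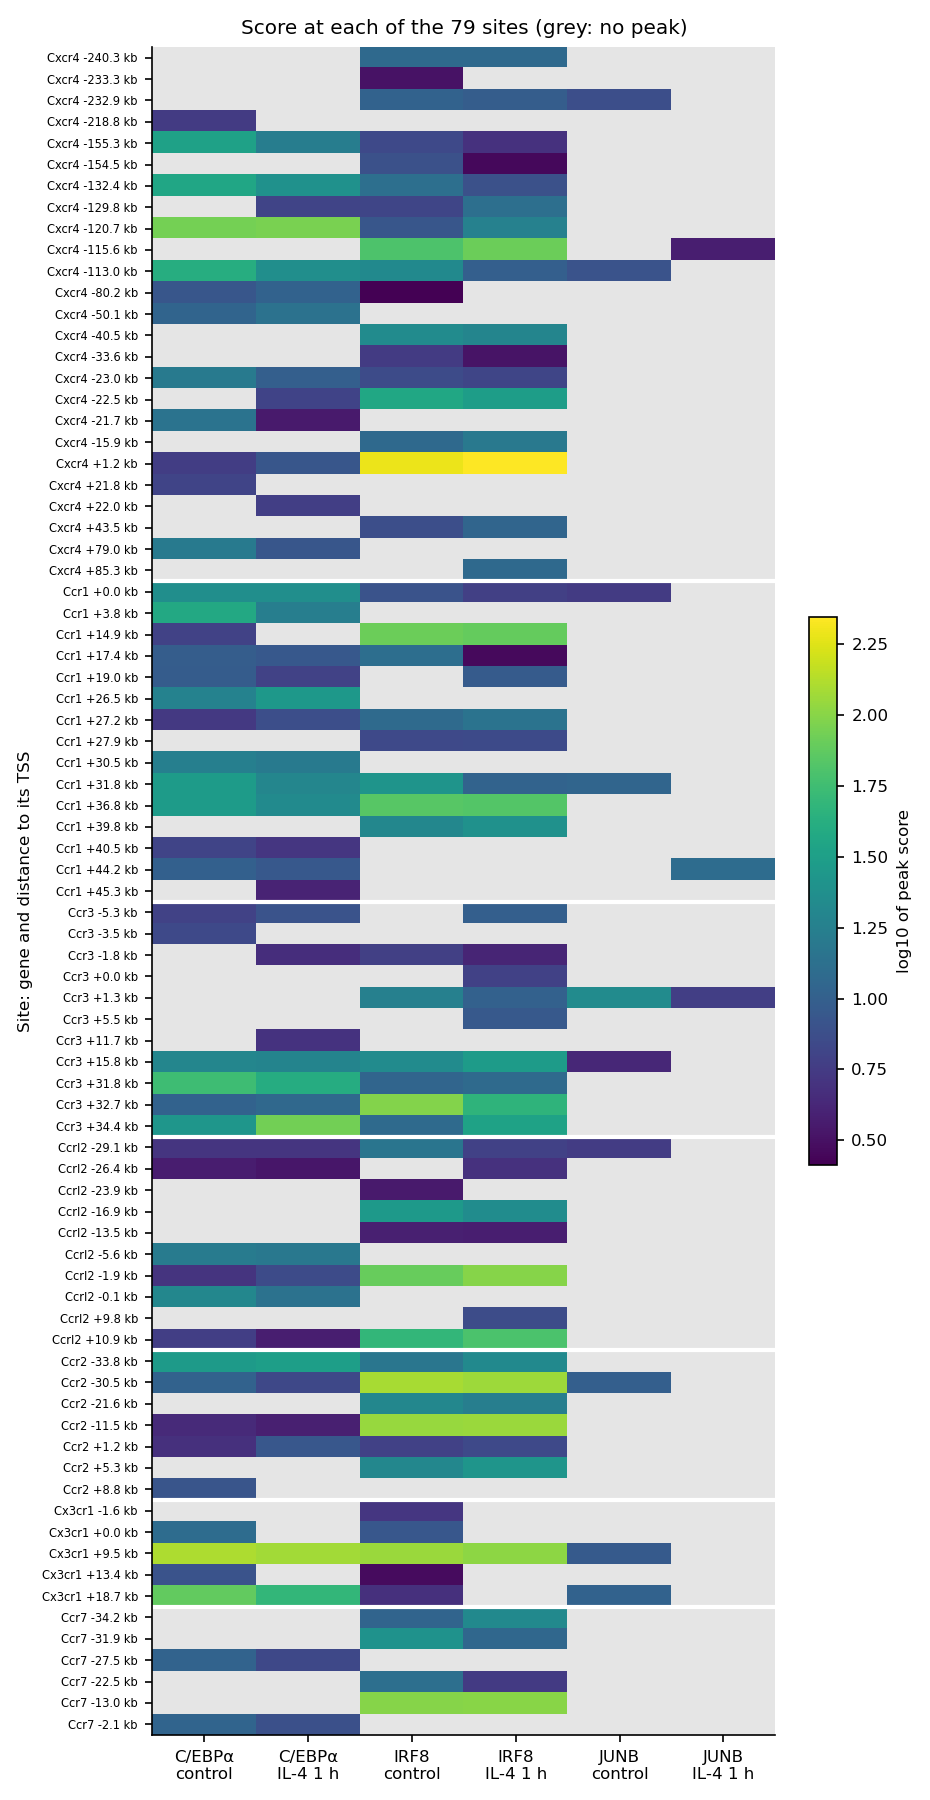
Score of every one of the 79 sites in the 6 lists as log10 in colour, with grey for no peak. Sites are grouped by gene and ordered by distance to the TSS in kb. Most rows are filled in the control and IL-4 column of a factor alike, the JUNB control column holds 10 filled cells and the JUNB IL-4 column 3, and the Cx3cr1 block is mostly grey after IL-4.

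The motif cores were counted in 200 bp around the peak centres of each list. JUNB control peaks at the 7 genes held an AP-1 match in 6 of 10 cases (60%, all JUNB control peaks 47.8%). C/EBPα control peaks held a C/EBP match in 11 of 47 (23.4%, all 34.3%), an ETS-IRF match in 10 of 47 (21.3%, all 11.6%) and a STAT6-type match in 2 of 47 (4.26%, all 12.9%). After IL-4 the STAT6-type share was 5 of 46 (10.9%, all 17.6%). IRF8 control peaks held an ETS-IRF match in 15 of 53 (28.3%, all 21.2%) and an AP-1 match in 10 of 53 (18.9%, all 11.1%). C/EBPα peaks near these genes thus held the C/EBP match in a smaller share, and the ETS-IRF match in a larger share, than the list as a whole, on counts of 11 or fewer. Over the highest peak of every site, AP-1 matched in 13 of 79 (16.5%, all 11%), C/EBP in 13 (16.5%, all 18.8%), ETS-IRF in 16 (20.3%, all 16.7%), the interferon response core in 11 (13.9%, all 13.5%) and the STAT6-type site in 10 (12.7%, all 14.5%).

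The other genes of the system gave counts that can be set beside these. Of 17 other chemokine receptor genes, 15 had a peak, with 51 sites. JUNB had 5 peaks in control and 3 after IL-4 there, with 2 of 5 sites in control only (40%, all JUNB sites 51.9%). Of 16 genes for ligands of the 7 receptors, 14 had a peak, with 80 sites. Of their 12 JUNB sites, 8 were in control only (66.7%, all JUNB sites 51.9%). IRF8 had 45 and 54 peaks there, 13 of 58 sites had IRF8 only after IL-4 (22.4%, all IRF8 sites 25.5%), and the median log2 ratio of IRF8 was 0.38 (all shared sites 0.08). Ccl2, which encodes the main CCR2 ligand, had 36 peaks and Ccl6 34, and the top IRF8 score of Ccl2 was 180.45 in control and 243.15 after IL-4. All 13 receptor signalling genes had peaks, with 166 sites, and 16 of 20 JUNB sites were in control only (80%, all JUNB sites 51.9%). Among them Elmo1, which acts in Rac activation, had 101 peaks and Pik3cg, a kinase subunit downstream of G proteins, 58. Whether these lists differ from the 7 genes was not tested.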

How the data were processed

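The data were 6 ChIP-seq peak lists of mouse BMDMs, 1 per factor and condition. According to the submitters' notes and the methods of the study, BWA 0.7.10 aligned the reads to mm10, with SAMtools 0.1.19, MACS2 2.0.10 called peaks in each sample, blacklisted regions were removed, and HOMER 4.2 annotated the peaks. The score column as deposited names no unit and was read as −log10 of a q-value or p-value. The lowest score was 1.3, and 1 to 48 peaks per list scored below 2. On a q-value scale these peaks would miss the q-value limit that the methods give for peak calling, so the reading as a q-value is uncertain. Distances to the TSS (bp), gene names and annotations are those the authors deposited.

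Peaks were merged in Python 3.11.15 with pandas 2.3.3, and bedtools 2.31.1 gave as many sites (60856). A list's score at a site was its highest one. Exact binomial intervals (95%) came from scipy 1.17.1. Site counting per factor was tested on simulated peaks. No simulated peaks of different factors overlapped, so that test did not check merging across factors. With 1 sample per group no test was run. The 7 genes, the other lists and the motifs were chosen with earlier results of these data known. Per gene, the sites named were the highest-scoring one, the one nearest the TSS, the highest seen only in control and only after IL-4, and all with the 3 factors. Further sites were named after their values were seen. No peak ended past its chromosome in GRCm38 (0 peaks).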

Additional observations from a re-analysis of the deposited data

Results flagged for a closer look

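At 4 genes the number of peaks was higher after IL-4 than in control for at least 1 factor and lower for at least 1 other, with 1 sample per factor and condition. At Ccr1 the difference in peaks (IL-4 minus control) was -1 for JUNB, 1 for IRF8 and 0 for C/EBPα. In the same order it was -1, 3 and 1 at Ccr3, -1, 1 and 0 at Ccrl2, and -1, -1 and 1 at Cxcr4. JUNB had 1 peak fewer after IL-4 at each of these genes, as IRF8 did at Cxcr4. The whole JUNB list was also shorter after IL-4 (3940 and 2325 peaks), and the whole IRF8 list was longer (37525 and 42076). The difference between the factors was not tested, since no group had a replicate, and the differences were of at most 3 peaks.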

How the results depend on the processing

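No paired analysis was possible because the results come from no test and each group had 1 sample. With a score of at least 10 required in every list, the 7 genes were left with 4 and 1 JUNB peaks in control and after IL-4, 34 and 32 IRF8 peaks and 28 and 21 C/EBPα peaks. Sites seen only after IL-4 were then 1 for C/EBPα (from 6), 4 for IRF8 (from 7) and 1 for JUNB (from 2), JUNB control-only sites were 4 (from 9), and sites with all 3 factors in control were 2 (from 8). In this setting a peak scoring under 10 counted as no peak. The JUNB control-only sites thus included Ccr3 intron 1, which had JUNB peaks of 22.21 and 5.89. Of 32 IRF8 sites scoring 10 or more after IL-4, 1 had no control peak of any score. The median log2 ratio of IRF8 changed sign to 0.023 at the stricter score, and to 0.045 with scores divided by the list median. Rank matching gave 11 IRF8 control-only sites (from 7) and 6 for JUNB (from 9), and the 100 kb limit left 1 JUNB site seen only after IL-4. The JUNB ratio rests on 1 site and had no value at the stricter score. The 50% reciprocal overlap, run only for sites seen in 1 condition, and peaks of 200 bp, run only for sites with all 3 factors, left those counts within 1.5 times. The causes were not tested. Depth is unknown, so absence of a peak means that none was called or, in the settings that dropped peaks, that none was kept.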

Other observations

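The genes whose summed scores over the 6 lists were most like those of the 3 members with most peaks were found among 14930 genes, by the Euclidean distance of log2(summed score + 1). Nearest to Cxcr4 were Il15 (0.595), Pde7b (0.626) and Smim20 (0.781). Nearest to Ccr1 were Eepd1 (0.41), Hif1a (0.475) and Gm9733 (0.498), and nearest to Ccr3 were 2210417A02Rik (0.419), Spty2d1 (0.557) and Ccrn4l (0.774). The IRF8 sums were 441.64 and 480.38 for Cxcr4 and 438.47 and 464.11 for Il15. The likeness rests on 6 values per gene and says nothing of shared function.

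Among the genes for ligands of the 7 receptors, Ccl8 had no IRF8 peak in control and 3 after IL-4, the highest at 10.97, and its top C/EBPα score was 9.82 in control and 33.78 after IL-4. Ccl12 had top C/EBPα scores of 18.19 and 60.98 and top IRF8 scores of 40.37 and 83.7. Ccl11 had top IRF8 scores of 16.34 and 47.0. These genes were picked after their values were seen, they lie in a gene cluster, and the differences have no replicate check.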
